A study of Arabidopsis thaliana with 6 samples.

Results

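The 51 loci described here encode proteins of the cytosolic ribosome of Arabidopsis thaliana and were chosen by name, from a list of loci for the large and the small subunit, out of 32833 loci in the count tables. Of these loci, 31 encode proteins of the large subunit and 20 of the small subunit. They fall into 26 protein families, 16 of the large and 10 of the small subunit, and 5 families are represented by 1 locus. Families can have further loci outside the 51, and the family sums, shares and ratios below cover only the 51. RNA was taken from whole seedlings of the Columbia genotype, for which the labels name no transgene or mutation. The ethylene group germinated in darkness for 3 d under 0.7 ppm ethylene, a gaseous plant hormone, and the air group germinated in darkness for 3 d without the gas. Both groups then stood in ethylene-free light for 5 d before RNA was extracted, so the comparison asks what still differed after the gas had gone. Each group had 3 libraries. The labels do not tie the replicates to separate cultures, so the spread behind the p-values is that of these samples and may be technical.

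The cytosolic ribosome translates messenger RNA made in the nucleus, and growing tissue makes its proteins in large and matched amounts. In Arabidopsis most ribosomal proteins are encoded by several loci (paralogs), and mutants in single loci often have pointed leaves or slow growth. Promoters of plant ribosomal protein genes often hold the site II motif, bound by TCP transcription factors in Arabidopsis, and the telo box, a short copy of the telomere repeat.

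Plant counts were 14805466, 15973885 and 17116359 in ethylene replicates 1 to 3 and 15278372, 12870604 and 14038341 in air replicates 1 to 3, so 1 count was worth between 0.0584 and 0.0777 CPM (the count scaled to a library of fixed size). The authors' deposited comparison table exchanges the names of air replicates 1 and 3 relative to the per-library tables, so which of these air libraries is which is uncertain; the names used here are those of the per-library tables, and the contrast between groups is the same either way. Markers of green leaf tissue were abundant in every library, and 3 of 4 seed storage genes had no count. Levels below are CPM scaled by TMM, a normalization that assumes most genes do not change, and fold changes are log2 of ethylene over air. Calls are those of edgeR's quasi-likelihood test where the p, after Benjamini-Hochberg (BH) adjustment over 17887 loci, was under 0.05. Synthetic spike-in RNA was lower per TMM-scaled library after ethylene (14.01 ± 0.20 after ethylene and 14.45 ± 0.09 in air on the log2 scale, SD, n = 3 each). The difference was -0.45, and scaling on the spike-ins moved all fold changes upward, to a median over all loci of 0.47 from 0.02 with TMM.

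Ribosomal protein genes had modestly higher transcript levels in seedlings that had germinated in ethylene. Of the 51 loci, 49 had enough counts to be tested. By edgeR's test, 13 of them were called, against 32.6% of all loci tested. Of these, 12 rose (24.5% of the 49, against 15.8% of all loci tested) and 1 fell (2.04%, against 16.8% of all loci tested). The median log2 fold change of the 49 genes was 0.22, with a middle range between 0.10 and 0.31, and 42 of them lay above 0 (85.7%, against 51.9% of all loci tested). The changes were small, from -0.39 to 0.49, and none reached a 2-fold change. In bulk seedlings, fewer cells of a type and less RNA per cell cannot be told apart.

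The counts of all members together made up 1.42%, 1.37% and 1.47% of plant counts after ethylene and 1.16%, 1.19% and 1.07% in air (1.42% ± 0.0495 after ethylene and 1.14% ± 0.0633 in air, SD, n = 3 each). The groups did not overlap, and air replicate 3 was the lowest library. On the TMM scale the summed level was 13572, 12826 and 13945 CPM after ethylene and 12225, 12514 and 11413 CPM in air. All 3 ethylene sums exceeded all 3 air sums on that scale too. The margin was smaller than for the shares of plant counts, with a log2 ratio of the mean sums of 0.16. TMM factors were 1.048 to 1.071 after ethylene and 0.9354 to 0.95 in air. In 19 genes the 3 ethylene libraries all lay above the 3 air libraries (23.9% of all loci tested did so), and in 1 they all lay below (23.8% of all loci tested).

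The number of called genes rested on single libraries. The count of members that rose was 2 without air replicate 1 (11.1% of all loci tested rose), 2 without air replicate 3 (11.2%) and 3 without ethylene replicate 3 (12.5%), so without these libraries the share of members called was below the background. Over the 6 omissions of 1 library, 2 to 9 members rose, against 10.8% to 15.4% of all loci tested, and the median fold change of the members stayed between 0.17 and 0.26. DESeq2 called 9 members higher (15.2% of all loci tested were). With spike-in scaling, 42 members rose (40% of all loci tested rose) and 0 fell (4.63% of all loci tested fell), with a median of 0.68 and all 49 fold changes above 0.

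**Figure D1:**
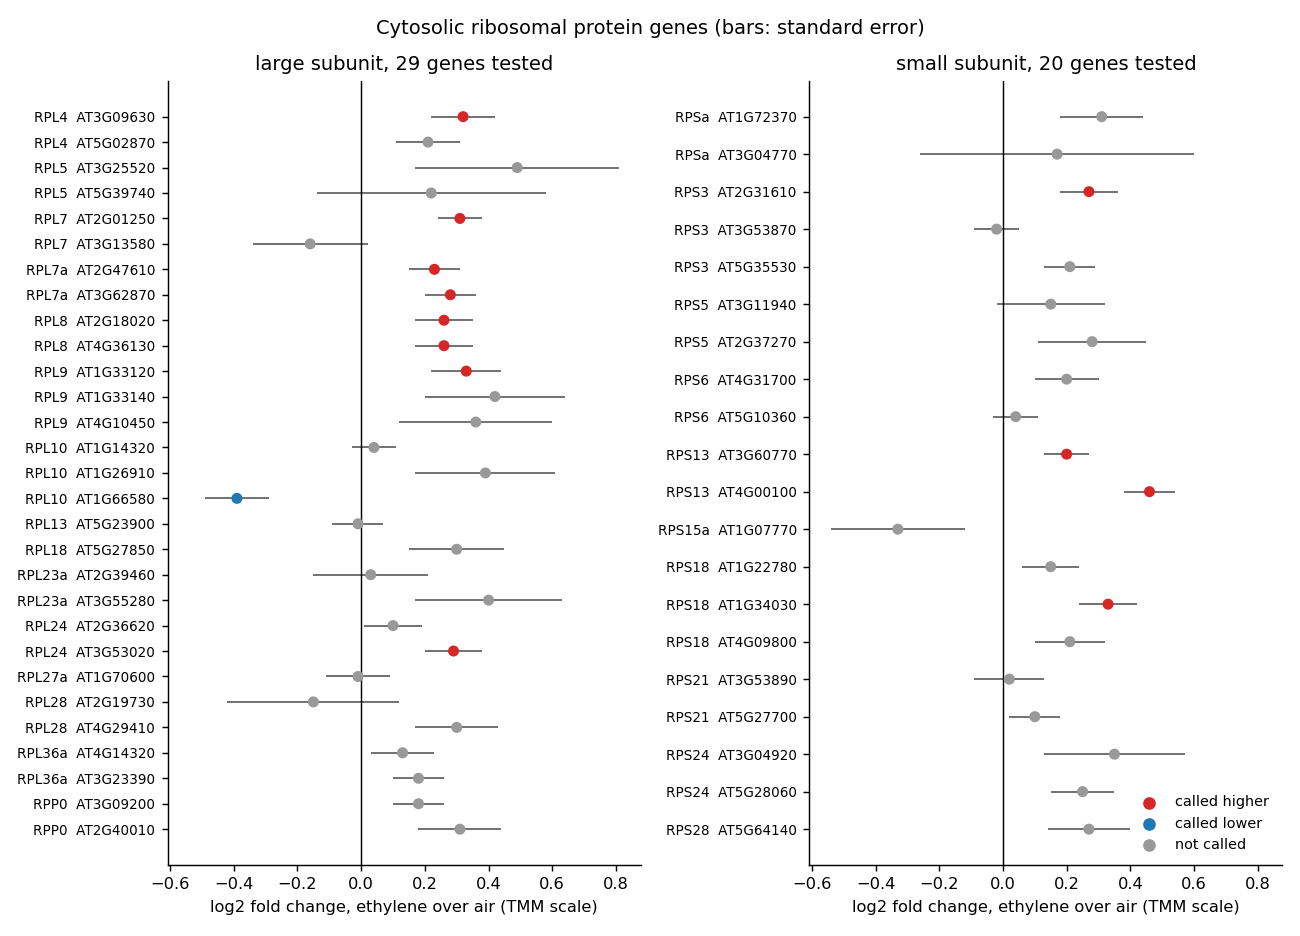
Log2 fold change (ethylene over air, TMM scale) of the 49 ribosomal protein genes tested, with bars for the standard error, by subunit and family from top to bottom. Most points lie to the right of 0, and the RPL10 gene AT1G66580 is the only gene called lower.

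Promoters are shown for the RPL10 and RPS13 members and for an RPL24, an RPL7 and an RPL4 gene that rose. The latter genes were picked for their many motif copies. Other families in which paralogs moved apart are not shown in full. Each is the run of 200 bases that ends just before the gene start, read 5′ to 3′ on the strand of the gene, from RefSeq assembly TAIR10.1. Capitals mark the site II motif (TGGGCC or TGGGCT, or the reverse complements GGCCCA or AGCCCA); none of these promoters held the telo box. The 3 RPL10 promoters held 1, 1 and 2 copies, and those of RPL24, RPL7 and RPL4 held 5, 3 and 4. Of the RPS13 pair, AT4G00100, which had the smallest p of all members, held none, and its paralog AT3G60770 held 2.
RPS13 AT4G00100, chr4:36716-36915, plus strand: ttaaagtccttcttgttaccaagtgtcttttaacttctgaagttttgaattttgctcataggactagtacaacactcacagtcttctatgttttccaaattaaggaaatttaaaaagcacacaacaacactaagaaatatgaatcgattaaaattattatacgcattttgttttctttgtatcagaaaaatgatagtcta
RPS13 AT3G60770, chr3:22461780-22461979, minus strand: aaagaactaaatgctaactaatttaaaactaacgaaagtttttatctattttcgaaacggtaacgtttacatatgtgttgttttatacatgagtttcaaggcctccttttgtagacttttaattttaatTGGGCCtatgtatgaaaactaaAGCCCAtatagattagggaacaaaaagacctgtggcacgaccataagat
RPL24 AT3G53020, chr3:19662026-19662225, minus strand: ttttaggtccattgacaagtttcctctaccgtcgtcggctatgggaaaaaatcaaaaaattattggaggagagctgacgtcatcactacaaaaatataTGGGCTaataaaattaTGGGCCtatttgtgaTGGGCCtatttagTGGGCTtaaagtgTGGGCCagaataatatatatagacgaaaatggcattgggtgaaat
RPL7 AT2G01250, chr2:134456-134655, minus strand: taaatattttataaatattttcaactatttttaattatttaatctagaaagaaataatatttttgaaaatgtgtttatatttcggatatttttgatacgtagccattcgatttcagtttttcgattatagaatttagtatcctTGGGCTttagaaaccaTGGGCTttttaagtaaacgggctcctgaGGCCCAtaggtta
RPL4 AT3G09630, chr3:2953493-2953692, plus strand: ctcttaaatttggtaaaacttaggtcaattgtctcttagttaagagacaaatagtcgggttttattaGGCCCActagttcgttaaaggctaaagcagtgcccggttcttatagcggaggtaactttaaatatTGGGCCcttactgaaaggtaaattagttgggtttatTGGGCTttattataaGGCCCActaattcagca
RPL10 AT1G66580, chr1:24838890-24839089, plus strand: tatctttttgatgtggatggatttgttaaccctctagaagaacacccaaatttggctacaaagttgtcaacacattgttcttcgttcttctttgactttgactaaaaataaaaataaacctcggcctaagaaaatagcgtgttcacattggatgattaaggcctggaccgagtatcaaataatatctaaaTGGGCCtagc
RPL10 AT1G14320, chr1:4887914-4888113, plus strand: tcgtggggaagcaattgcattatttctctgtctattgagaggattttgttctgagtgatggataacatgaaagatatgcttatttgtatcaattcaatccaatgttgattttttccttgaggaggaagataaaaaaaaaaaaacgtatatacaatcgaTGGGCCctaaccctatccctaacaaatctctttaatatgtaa
RPL10 AT1G26910, chr1:9321450-9321649, plus strand: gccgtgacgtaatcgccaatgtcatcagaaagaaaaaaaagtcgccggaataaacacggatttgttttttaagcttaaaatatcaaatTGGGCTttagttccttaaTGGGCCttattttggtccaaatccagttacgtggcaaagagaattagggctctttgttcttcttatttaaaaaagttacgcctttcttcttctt

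Among all 51 promoters, 31 held site II on either strand (60.8%, against 20.9% of 17226 promoters of tested loci and 17.6% of 27443 promoters of protein-coding genes). The share was 64.5% in the large subunit and 55% in the small subunit. The telo box (AAACCCTA or its reverse complement TAGGGTTT) was found in 7 promoters (13.7%, against 2.76% of tested loci), and 4 of these also held site II. In 17 promoters neither motif was found. Site II was present in 9 of the 12 members that rose and in 22 of the other 39, and the telo box in 0 of the 12 and 7 of the 39. No test was made of this split. Overlapping matches on either strand were counted separately; a match describes the letters of this window and is not a measured binding site.

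**Figure D2:**
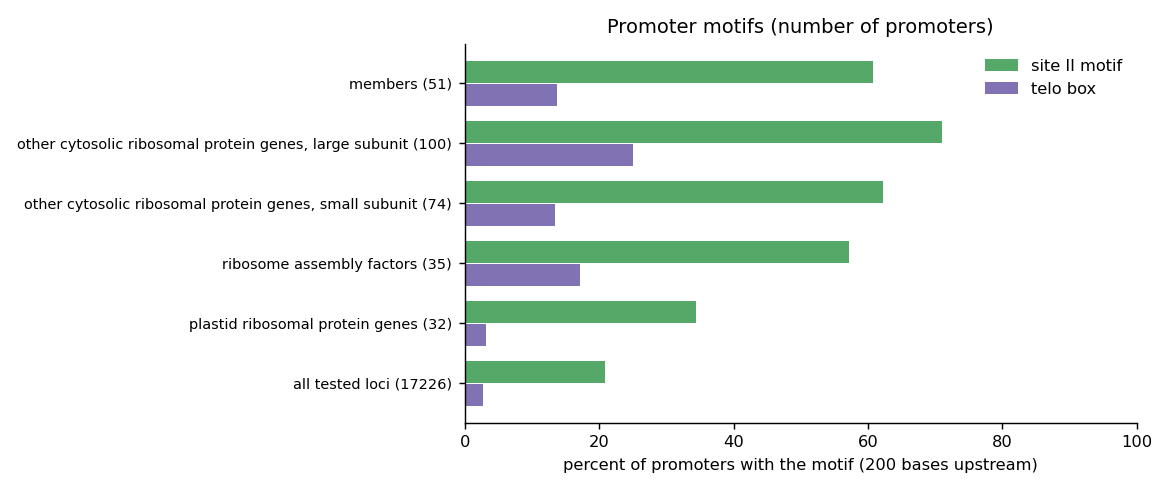
Share of promoters (percent, 200 bases before the gene start) with site II (upper bar of each pair) or the telo box (lower bar), for the members and other gene groups. The members and the other cytosolic ribosomal protein genes lie between 60.8% and 71% for site II, against 20.9% for all tested loci.

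In the large subunit, 29 of 31 genes were tested, 8 rose (27.6%, against 15.8% of all loci tested) and 1 fell (3.45%, against 16.8%), and the median fold change was 0.26. In the small subunit all 20 genes were tested, 4 rose (20%, near the 15.8% of all loci tested) and none fell by edgeR's test (against 16.8%), and the median was 0.20. At an unadjusted p under 0.05, 7 small subunit genes were higher and 0 lower, against 3892 and 3794 of 17887 loci tested. DESeq2 called 3 of the 20 higher, near the 15.2% of all loci tested, and 0 lower, against 2924 of 17887. The ratio of small to large subunit counts was 0.591, 0.588 and 0.580 after ethylene and 0.571, 0.576 and 0.572 in air. The ethylene ratios were all above the air ratios, by a margin much smaller than the change of either subunit. Summed over the member paralogs, 22 of 26 families had a higher mean after ethylene, and in 12 families all 3 ethylene sums lay above all 3 air sums. Among single loci tested, 23.9% had all 3 ethylene libraries above all 3 air libraries and 23.8% all below. No such share was taken for sums over other gene families. RPL10 was the only family whose ethylene sums all lay below its air sums.

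Nearly all counts of the RPL7 members, which encode a core protein of the large subunit, came from AT2G01250. This gene stood at 279, 264 and 260 CPM after ethylene and at 223, 213 and 211 CPM in air. The groups were well apart, with the lowest ethylene library above the highest air library. It rose by 0.31 ± 0.07 (SE, n = 3 per group; edgeR with BH adjusted p = 0.00868). The other RPL7 member, AT3G13580, averaged 7.62 ± 1.19 CPM after ethylene and 8.51 ± 0.594 CPM in air, and its libraries overlapped. Its log2 fold change was -0.16 (edgeR with BH adjusted p = 0.534), and 0.28 scaled on spike-ins. This locus has 9 transcripts, and 4.96% of its exon bases belong to a single transcript in RefSeq.

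RPL7a has a pair of paralogs of nearly equal counts, and both were called higher. AT3G62870 had 618, 558 and 606 CPM after ethylene and 507, 507 and 459 CPM in air. AT2G47610 had 611, 552 and 595 CPM after ethylene and 513, 520 and 467 CPM in air. The libraries of the pair rose and dipped together, with ethylene replicate 2 and air replicate 3 low in both. The log2 fold changes were 0.28 ± 0.08 for AT3G62870 and 0.23 ± 0.08 for AT2G47610 (edgeR with BH adjusted p = 0.0221 and 0.0462). The call of AT2G47610 was lost with DESeq2 (adjusted p = 0.0604), without a filter on low counts (0.0523) and in each omission of 1 library (0.0593 to 0.145). That of AT3G62870 was lost without ethylene replicate 1 or 3 or air replicate 1 or 3 (edgeR with BH adjusted p = 0.0635 to 0.0687).

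RPL8 lies beside the catalytic centre of the ribosome, and RPL24 forms part of a bridge to the small subunit. The RPL8 gene AT2G18020, also called EMB2296 because its loss arrests embryos, had the highest level of all large subunit members in CPM. It had 1197, 1117 and 1300 CPM after ethylene and 1045, 1060 and 915 CPM in air, without overlap. The rise was 0.26 ± 0.09 (edgeR with BH adjusted p = 0.0468), and its paralog AT4G36130 rose by 0.26 ± 0.09 as well (adjusted p = 0.0476). Neither call was firm: that of AT2G18020 was lost in each omission of 1 library (edgeR with BH adjusted p = 0.0541 to 0.152), and that of AT4G36130 with DESeq2 (0.056) and in each omission but that of ethylene replicate 2 (0.057 to 0.155). The RPL24 gene AT3G53020, also called STV1 and known in Arabidopsis for its part in translation re-initiation on auxin response factor mRNAs, had 836, 850 and 911 CPM after ethylene and 710, 769 and 641 CPM in air. It rose by 0.29 ± 0.09 (edgeR with BH adjusted p = 0.0248), with the lowest ethylene library above the highest air library. Its paralog AT2G36620 averaged 357 ± 24.5 CPM after ethylene and 333 ± 29.2 CPM in air, with overlap (0.10, adjusted p = 0.415). The call of AT3G53020 was lost without ethylene replicate 2 or 3 or air replicate 1 or 3 (edgeR with BH adjusted p = 0.0641 to 0.0925).

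RPL4 sends a loop into the tunnel through which the new protein leaves. Its gene AT3G09630 had 145, 115 and 127 CPM after ethylene and 97.3, 109 and 104 CPM in air and rose by 0.32 ± 0.10 (edgeR with BH adjusted p = 0.0306), a call lost without ethylene replicate 1 or 3 or air replicate 1 or 3 (0.0535 to 0.141). The other RPL4 gene, AT5G02870, had 209, 161 and 170 CPM after ethylene and 154, 156 and 156 CPM in air. These libraries did not overlap either, but the change of 0.21 ± 0.10 was not called (edgeR with BH adjusted p = 0.14). The RPL9 genes AT1G33120 and AT1G33140 (PGY2, known from a mutant that enhances the leaf defects of asymmetric leaves plants) share 99.1% of their coding bases, with an identical run of 458 bases, so reads may have been split between them and each value is uncertain. AT1G33120 had 218, 169 and 161 CPM after ethylene and 147, 150 and 141 CPM in air and rose by 0.33 ± 0.11 (edgeR with BH adjusted p = 0.046), a call lost in each omission but that of ethylene replicate 3 (0.0614 to 0.129). AT1G33140 had 161, 78.9 and 100 CPM after ethylene and 88.4, 94.5 and 72.3 CPM in air, and ethylene replicate 1 stood far above the other libraries. Summed, the 3 RPL9 genes had 390, 256 and 267 CPM after ethylene and 241, 250 and 220 CPM in air, without overlap.

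RPL10 joins the large subunit late in its assembly, close to where the transfer RNAs bind. Its family was the one that held a called fall beside paralogs that were not called. AT1G66580, also called SAG24 for its listing among senescence-associated genes, had 485, 401 and 451 CPM after ethylene and 539, 567 and 646 CPM in air. All 3 ethylene libraries were lower than all 3 air libraries, and the gene fell by 0.39 ± 0.10 on the log2 scale (edgeR with BH adjusted p = 0.012). The call was lost without ethylene replicate 2 (edgeR with BH adjusted p = 0.0565), and the fold change scaled on spike-ins was 0.07 (adjusted p = 0.775).

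AT1G14320 (SAC52), in which a dominant mutation restores stem growth of an Arabidopsis thermospermine mutant, had 738, 707 and 706 CPM after ethylene and 726, 675 and 692 CPM in air. Its libraries overlapped, with a log2 fold change of 0.04 ± 0.07 (edgeR with BH adjusted p = 0.713). AT1G26910 was under 1% of the family, at 5.81, 10.0 and 9.15 CPM after ethylene and 6.97, 5.98 and 6.10 CPM in air (0.39 ± 0.22, adjusted p = 0.209). Within a library, the ratio of paralogs does not depend on the scaling. AT1G66580 gave 39.5%, 35.9% and 38.7% of RPL10 counts after ethylene and 42.4%, 45.4% and 48.0% in air, and AT1G14320 gave 61.3% ± 1.71 after ethylene and 54.2% ± 2.80 in air (SD, n = 3 each). The groups did not overlap for either gene. The log2 ratio of AT1G66580 to its paralogs was lower after ethylene by 0.43 (difference -0.43), and it ranged from -0.52 to -0.35 when libraries were left out in turn.

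**Figure D3:**
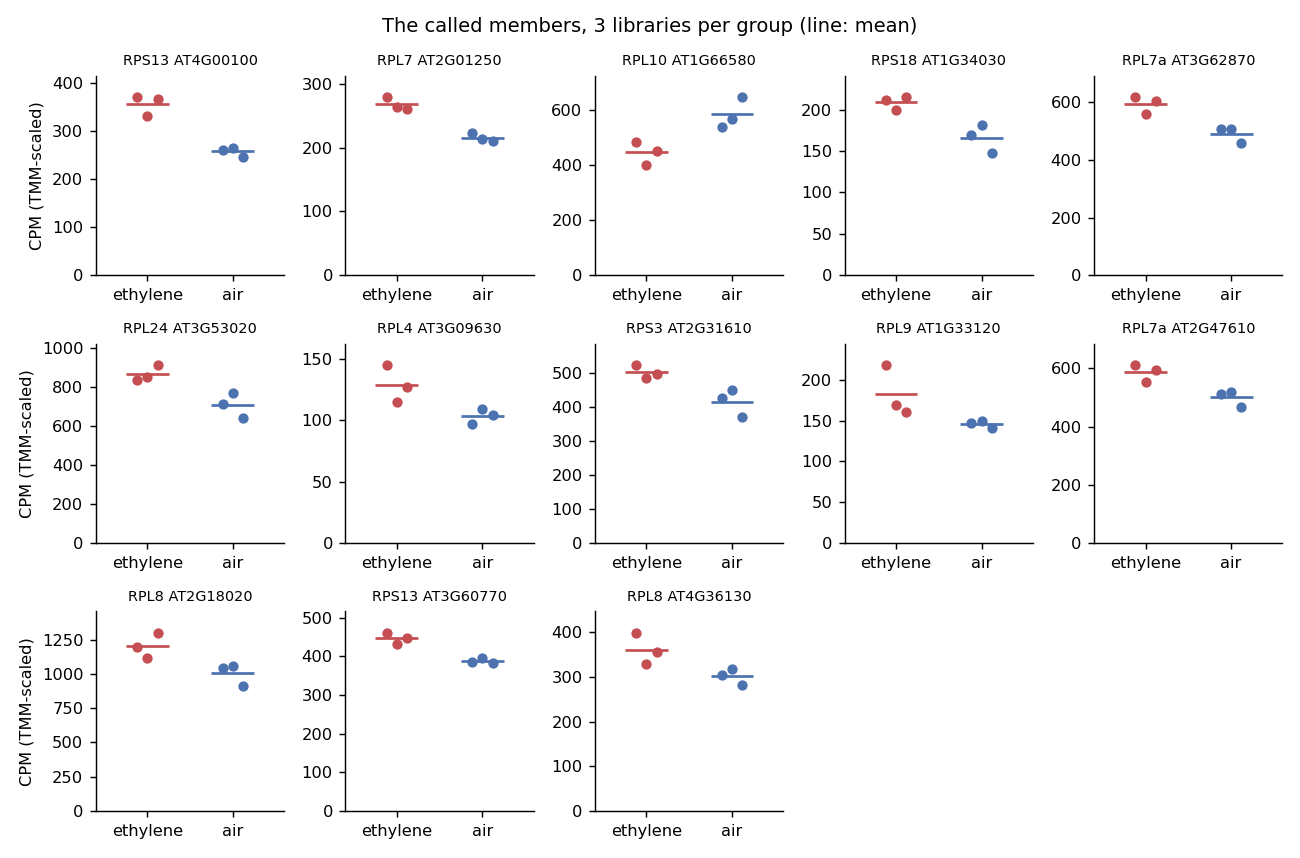
TMM-scaled CPM of the 13 called genes in each library, with ethylene left and air right in each panel and a line at the mean of 3 libraries. In every panel the groups are apart, and only RPL10 AT1G66580 has its ethylene libraries, 401 to 485 CPM, below its air libraries, 539 to 646 CPM.

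The other large subunit genes gave values without a call. RPL13 AT5G23900 had a log2 fold change of -0.01 and RPL27a AT1G70600 also -0.01 (0.45 and 0.43 with spike-in scaling), so these abundant genes lay well below the median of the members. AT1G70600 had 940, 951 and 1120 CPM after ethylene and 1043, 1081 and 912 CPM in air, with overlap. Its paralog AT1G23290 had 2, 0 and 0 counts after ethylene and no count in air. The libraries with no count allow up to between 0.175 and 0.233 CPM (3 counts, counting error only, without TMM scaling). RPL3 AT1G43170, whose protein reaches the catalytic centre, had 7, 6 and 8 counts after ethylene and 1, 4 and 2 counts in air and was not tested. This locus has 9 transcripts in the files, and 9.59% of its exon bases belong to a single transcript in RefSeq. RPP0 forms the base of the stalk that receives elongation factors and had 1 abundant gene among the members, AT3G09200. This gene stood at 518, 585 and 601 CPM after ethylene and 516, 517 and 476 CPM in air. Its libraries did not overlap, and the change of 0.18 ± 0.08 was not called (edgeR with BH adjusted p = 0.129).

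In the small subunit, RPS13 held the member with the smallest p. AT4G00100 (RPS13A), whose Arabidopsis mutants have pointed first leaves, had 371, 331 and 368 CPM after ethylene and 262, 266 and 246 CPM in air. The lowest ethylene library stood well above the highest air library, and the gene rose by 0.46 ± 0.08 (edgeR with BH adjusted p = 0.0015). Its paralog AT3G60770 had 461, 433 and 447 CPM after ethylene and 385, 397 and 384 CPM in air and rose by 0.20 ± 0.07 (edgeR with BH adjusted p = 0.0471). The call of AT3G60770 was lost with DESeq2 (adjusted p = 0.076), without a filter on low counts (0.0763) and in each omission of 1 library (0.0846 to 0.192), whereas that of AT4G00100 held in all of these. The share of AT3G60770 in RPS13 counts was 55.4%, 56.7% and 54.8% after ethylene and 59.5%, 59.8% and 61.0% in air. The ethylene shares were all lower, and the log2 ratio of AT3G60770 to AT4G00100 differed by -0.26.

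RPS3 sits where the messenger RNA enters the small subunit, and its 3 genes did not move alike. AT2G31610 had 523, 484 and 498 CPM after ethylene and 425, 451 and 370 CPM in air and rose by 0.27 ± 0.09 (edgeR with BH adjusted p = 0.0366), a call lost in each omission but that of air replicate 2 (0.0708 to 0.113). AT3G53870, the small subunit member with the highest CPM, had 659, 627 and 660 CPM after ethylene and 663, 648 and 660 CPM in air. Its groups overlapped closely, with a log2 fold change of -0.02 ± 0.07 (edgeR with BH adjusted p = 0.868; 0.44 with spike-in scaling). AT5G35530 had 420, 386 and 432 CPM after ethylene and 363, 379 and 333 CPM in air, without overlap but also without a call (0.21, adjusted p = 0.0774). The share of AT3G53870 in RPS3 counts was 41.5% ± 0.356 after ethylene and 46.0% ± 2.29 in air (SD, n = 3 each), a log2 ratio lower by 0.26 (difference -0.26) without overlap.

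RPS18 touches the transfer RNA in the head of the small subunit. AT1G34030 had 212, 199 and 215 CPM after ethylene and 169, 182 and 148 CPM in air and rose by 0.33 ± 0.09 (edgeR with BH adjusted p = 0.0198), a call lost without ethylene replicate 1 or 3 or air replicate 1 or 3 (0.0545 to 0.0679). The other genes of the family, AT1G22780 (PFL, named for the pointed first leaf of its mutant) and AT4G09800, overlapped between groups, with log2 fold changes of 0.15 and 0.21. The groups of AT1G34030 were separate, and air replicate 3 was again the lowest. RPS6, the ribosomal protein phosphorylated downstream of the TOR kinase, gave 0.20 for AT4G31700 and 0.04 for AT5G10360, neither called. RPS5A, AT3G11940, a gene used in Arabidopsis as a promoter source for dividing cells, had 67.1, 108 and 113 CPM after ethylene and 84.5, 90.6 and 84.1 CPM in air. Its ethylene libraries fell on both sides of the air libraries.

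RPS15a AT1G07770 had 26.5, 27.1 and 29.5 CPM after ethylene and 35.6, 46.8 and 22.5 CPM in air. The air libraries spread across the ethylene ones, and the log2 fold change of -0.33 ± 0.21 was not called (edgeR with BH adjusted p = 0.262; 0.12 with spike-in scaling). Without air replicate 3 the change was -0.58 and was called (edgeR with BH adjusted p = 0.00706).

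Over the 21 families with at least 2 members, 29 log2 ratios of a paralog to the rest of its family were compared. In 10 of them the ethylene and air libraries did not overlap. The share of such ratios in gene families outside the members was not measured. The exact two-sided permutation test of 3 against 3 libraries can give no p below 0.10, and the smallest BH-adjusted p over the 29 ratios was 0.29. Ratios within a family of 3 share their counts, so they are not separate results. Of the counts of the RPL7 members, AT2G01250 made up 97.2% ± 0.468 after ethylene and 96.2% ± 0.199 in air, a log2 ratio higher by 0.48. RPL24 AT2G36620 made up 29.2% ± 0.788 after ethylene and 32.0% ± 0.637 in air, a log2 ratio lower by 0.19 (difference -0.19). The RPL7a pair, by contrast, differed by only -0.05, with shares of AT2G47610 of 49.7% ± 0.103 after ethylene and 50.4% ± 0.170 in air, although its groups too did not overlap. RPL8 showed no difference to 2 decimals, with AT2G18020 at 76.9% in both groups.

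**Figure D4:**
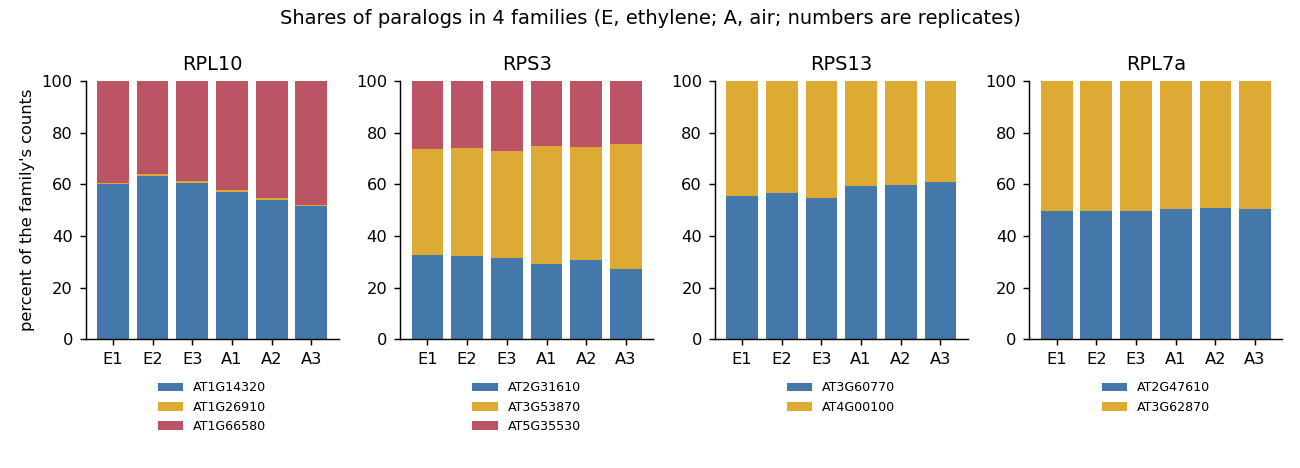
Share of each paralog in the summed counts of its family (percent) in ethylene replicates 1 to 3 (E1 to E3) and air replicates 1 to 3 (A1 to A3) for RPL10, RPS3, RPS13 and RPL7a. The AT1G66580 share of RPL10 is 35.9% to 39.5% after ethylene and 42.4% to 48.0% in air, and the RPL7a shares stay near 50%.

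CPM per kilobase of exon was taken only for the 25 loci with 1 transcript in the files. The paralog shares and CPM ranks given above rest on counts that were not scaled by length. RPL27a AT1G70600 stood highest, at 1047 per kilobase after ethylene and 1055 in air, beside RPL8 AT2G18020 at 1024 after ethylene and 855 in air. RPS3 AT3G53870 was the highest of the small subunit at 585 after ethylene and 592 in air. The less abundant RPP0 member, AT2G40010, was the lowest gene tested in this set, at 13.7 after ethylene and 11.1 in air.

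Calls were unevenly spread over genes with 1 and with several transcripts in the files. Of 24 tested members with 1 transcript, 10 rose (41.7%, against 15.8% of all loci tested) and 1 fell, with a median of 0.24. Of 25 tested members with 2 or more transcripts, 2 rose (8%, below the 15.8% of all loci tested) and none fell by edgeR's test, with a median of 0.21. At an unadjusted p under 0.05, 4 of these 25 were higher and 0 lower, against 3892 and 3794 of 17887 loci tested. DESeq2 called 2 of them higher and 0 lower, against 15.2% of all loci tested called higher. The mean count per library was 5939 in the first set and 2035 in the second. Loci with several transcripts may have been counted from only part of their reads, and this was not tested. In these 25 genes, ethylene replicate 1 was the lowest of the 3 ethylene libraries in 14 and the highest in 9. In the 24 genes with 1 transcript it was the lowest in 5 and the highest in 12. No such share was taken over all loci. RPL23a AT2G39460 is an example of a low replicate 1. It had 42.8, 70.0 and 77.4 CPM after ethylene and 64.8, 61.8 and 60.5 CPM in air, where ethylene replicate 1 alone lay below the air libraries.

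The other 174 listed cytosolic ribosomal protein genes also rose more often than they fell. Of 151 tested, 37 rose (24.5%, against 15.8% of all loci tested) and 2 fell (1.32%, against 16.8%) by edgeR's test. The median log2 fold change was 0.20. By subunit, 16 rose and 2 fell of 65 small subunit genes, and 21 rose and none fell of 86 large subunit genes (1 lower at an unadjusted p under 0.05, and 0 with DESeq2). AT3G52580, annotated as a ribosomal protein S11 gene, rose by 0.71 ± 0.11 (edgeR with BH adjusted p = 0.00114). RPL16A, AT2G42740, rose by 0.61 ± 0.12 (adjusted p = 0.004), AT3G11250, annotated as a ribosomal protein L10 family gene, the family of RPP0, by 0.46 ± 0.10, and AT5G58420, an RPS4 gene, by 0.47 ± 0.09.

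Genes that build or regulate the ribosome did not all follow. Of 34 ribosome assembly factors, 11 rose (32.4%, against 15.8% of all loci tested) and 3 fell (8.82%, against 16.8%). The median of this list was 0.03. The rises included FIB2, a fibrillarin that methylates ribosomal RNA, at 256, 234 and 258 CPM after ethylene and 163, 162 and 132 CPM in air (0.71 ± 0.10, edgeR with BH adjusted p = 0.000483). NOP56, of the same nucleolar complex, rose by 0.58 ± 0.09 (adjusted p = 0.000779), and NUC-L1, a nucleolin, by 0.35 ± 0.08 (adjusted p = 0.00696). Of 30 translation initiation and elongation factors, 3 rose (10%) and 1 fell (3.33%), both below the shares of all loci tested. The median was 0.05. The elongation factor 1-beta genes AT5G12110 and AT5G19510 rose by 0.65 and 0.32, and PAB2, the poly(A) binding protein gene with the highest CPM in that list, was at 0.06 without a call. Of 12 genes of the TOR kinase pathway and of ribosomal protein gene regulation, none rose and 1 fell by edgeR's test (0 and 2 at an unadjusted p under 0.05, and 0 and 1 with DESeq2). The share that fell by edgeR's test was 8.33%, against 16.8% of all loci tested. The called gene was RAPTOR1, which brings substrates to TOR, with a log2 fold change of -0.36 ± 0.08 (edgeR with BH adjusted p = 0.00699; 0.09 with spike-in scaling).

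Nuclear genes for plastid ribosomal proteins, which serve translation inside chloroplasts, went the other way on the TMM scale. Of 32 tested, 1 rose (3.12%, against 15.8% of all loci tested) and 12 fell (37.5%, against 16.8%). The median was -0.22 on the log2 scale. Scaled on spike-ins, 4 rose, none fell and the median was 0.23, so their direction depended on the scaling. The median of the cytosolic members was above 0 on both scales. Over all loci tested the median was 0.02 with TMM and 0.47 with spike-ins. The plastid list lay below that median on both scales, and the cytosolic members lay above it on both. Summed, the plastid list had 11673, 11455 and 11744 CPM after ethylene and 13225, 13050 and 13715 CPM in air, without overlap. RPL15, AT3G25920, the most abundant of them in CPM, had 773, 777 and 767 CPM after ethylene and 923, 928 and 917 CPM in air (-0.26 ± 0.07, edgeR with BH adjusted p = 0.0146; 0.20 with spike-in scaling).

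**Figure D5:**
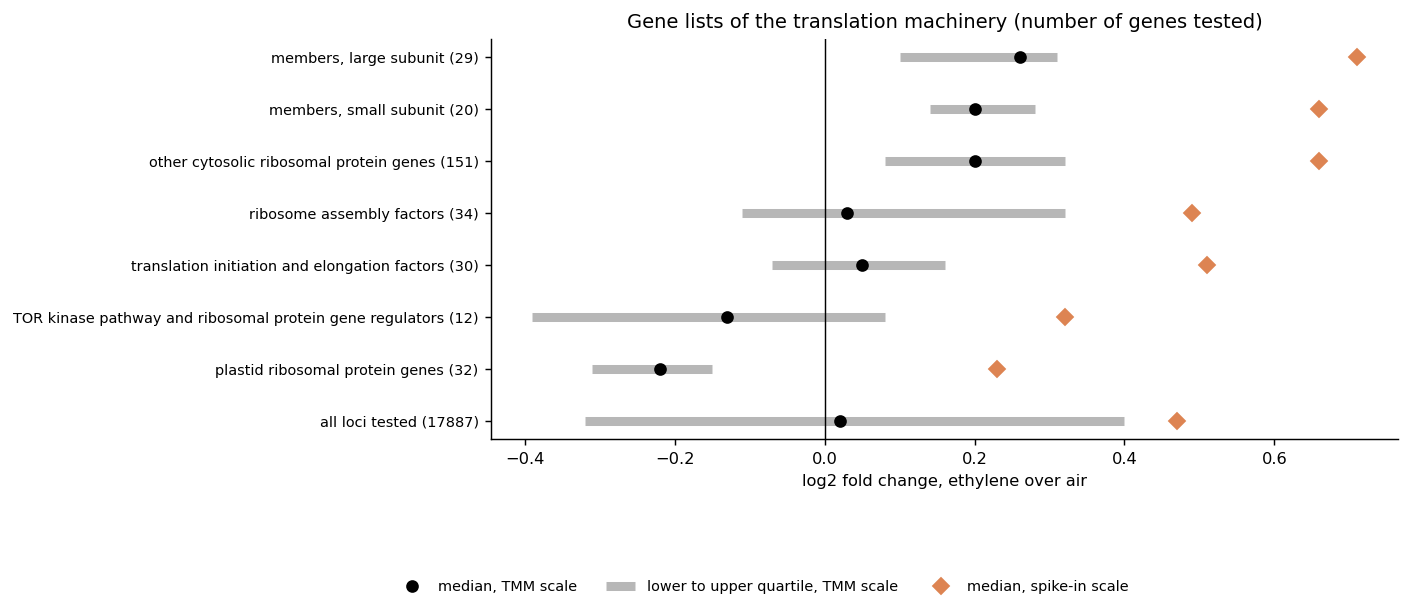
Median log2 fold change of each gene list (black points, TMM scale) with the range from the lower to the upper quartile of its genes (grey bars), and the median with spike-in scaling (diamonds). On the TMM scale the cytosolic ribosomal protein lists have medians from 0.20 to 0.26 and the plastid list -0.22, and all medians lie above 0 with spike-in scaling.

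Marker lists of cell types and tissues moved in different directions on the TMM scale. All 7 tested genes of the dividing cell list rose (of 8 listed), with a median of 1.18 and summed levels of 363, 376 and 346 CPM after ethylene and 181, 183 and 142 CPM in air. The green leaf list had 0 higher and 2 lower of 4 genes by edgeR's test (0 and 3 at an unadjusted p under 0.05, and 0 and 2 with DESeq2), with sums of 34444, 32657 and 32393 CPM after ethylene and 48150, 49787 and 52657 CPM in air. With spike-in scaling neither of these 2 falls was called. For root markers, 1 of 5 tested genes rose (20%, near the 15.8% of all loci tested). The root sums were 140, 137 and 112 CPM after ethylene and 91.5, 110 and 48.0 CPM in air. The shoot meristem and young leaf list had 3 higher and 1 lower of 5, with sums between 168 and 188 CPM after ethylene and between 155 and 167 CPM in air. Air replicate 3 was lowest in the sums of the members, of the dividing cell list and of the root list. The part of these tissue differences in the ribosomal protein result was not tested.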

How the data were processed

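For each library the authors deposited 1 table of counts per transcript, whole numbers by their values. Per the labels' protocols, messenger RNA was enriched from Trizol extracts, fragmented and copied by random priming. Aligner, counter, build, annotation, strand setting and the treatment of reads shared by paralogs or transcripts are not given in the sources used here, so overlapping and near-identical genes are uncertain. Counts were summed over transcripts per locus, with 325 lower-case identifiers joined to their locus. The 92 spike-ins were kept out of library sizes. Totals lay between 13163499 and 17462603 counts, and no replicate pair was alike within sampling noise.

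Loci passing filterByExpr (minimum count 10, minimum total 15) were tested with edgeR 4.0.16 (R 4.3.3), TMM factors, group as the only term and Benjamini-Hochberg (BH) adjustment over 17887 loci. Standard errors (SE) were derived from fold change and p. The procedure was tested on simulated data with 2-fold changes. No member changed that much, so this test does not cover changes of the size seen here. Paralog ratios took a prior count of 0.5 and an exact two-sided permutation test. DESeq2 1.42.0, other scalings and filters, a replicate block, the most abundant transcript and omission of each library were alternatives. Symbols and promoters came from RefSeq TAIR10.1, where 32548 loci were found. The files hold no coordinates, so those printed are RefSeq's. AT3G27450 was dropped from the lists for want of a protein-coding record.

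The members, lists and rule were chosen with earlier results of these data known. The rule named up to 8 members called in each direction by smallest p, the highest CPM per subunit, families with paralogs over 0.5 apart, and from each list up to 2 called genes and that with the highest CPM. Other members are named after their values were seen.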

Additional observations from a re-analysis of the deposited data

How the results depend on the processing

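The median fold change of the members was above 0 under every alternative run, and RPS13 AT4G00100 and RPL7 AT2G01250 rose under each (largest BH-adjusted p, edgeR or DESeq2, 0.0104 and 0.035). Spike-in scaling gave 7160 loci higher and 829 lower; 42 members rose and 0 fell (median 0.68), 24 and 0 in the large subunit (0.71) and 18 in the small (0.66). The members that rose numbered 9 of 49 with DESeq2 (15.2% of all loci tested rose) and 14 of 49 with upper-quartile factors (17.1%). They numbered 10 of 51 without a filter (11.7%), 14 of 45 with a mean CPM of at least 5 (22.1%) and 12 of 49 with the most abundant transcript (15.9%). Replicate numbers did not pair the libraries (correlations of same-numbered deviations 0.06, -0.13 and 0.20, or -0.24, -0.13 and -0.14 with the names of air replicates 1 and 3 exchanged). With a replicate block 7 of 49 members rose, a share below the 15.5% of all loci tested. Of these 7, 4 were in the large subunit. Leaving out each library gave 1978 to 2845 loci higher and 2383 to 3058 lower, 2 to 9 members higher and 0 to 2 lower (medians 0.17 to 0.26), 1 to 5 higher and 0 to 1 lower in the large subunit (0.19 to 0.27), 1 to 4 higher and 0 to 1 lower in the small (0.15 to 0.24), and AT1G66580 ratios from -0.52 to -0.35. Some genes changed sign, of which AT1G66580 alone was a called one: AT5G23900, AT1G70600 and AT3G53870 at 0.01, 0.01 and 0.00 with upper-quartile factors, 0.02, 0.01 and 0.01 with the mean CPM filter and 0.45, 0.43 and 0.44 with spike-ins; AT2G39460 at -0.02 with the block. With spike-ins AT3G13580 reached 0.28, AT1G66580 0.07, AT2G19730 0.29 and AT1G07770 0.12. Leaving out libraries, the ranges were -0.10 to 0.03 for AT1G70600, -0.15 to 0.47 for AT3G04770, -0.06 to 0.06 for AT5G23900, -0.15 to 0.24 for AT2G39460, -0.05 to 0.01 for AT3G53870, -0.08 to 0.12 for AT3G53890, -0.01 to 0.05 for AT1G14320 and -0.06 to 0.43 for AT5G39740. The causes of these changes were not tested. In all, 2 of 51 loci had too few counts to be tested.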
